A study of Mus musculus with 192 samples.

Results

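Dendritic cells grown from mouse bone marrow were given 3 ligands of innate immune receptors at once, PAM, SeV and cGAMP, and compared with cells given each of the 3 pairs of these ligands. The 12 libraries were taken by their labels, 3 each for PAM_SeV_cGAMP (the triplet), PAM_SeV, PAM_cGAMP and SeV_cGAMP, out of 192 libraries in the series. No measured value entered the choice. The 9 libraries of the single ligands and the 3 of the Ctrl group were used where an effect of a ligand alone was needed. All of these cells came from female C57BL/6J mice aged 6 to 8 weeks, with no altered allele named, and had been grown with the growth factor GM-CSF at 15 ng/mL. They were plated at 100000 cells a well and stimulated for 6 hours. No dose is given in the labels used here. The labels also do not say whether the 3 libraries of a group came from separate cultures or animals, so every p-value measures the spread between these samples, which may be technical.

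Innate immune cells detect microbes through receptors that signal along a few shared routes. The labels give PAM and SeV only as abbreviations. In this field PAM usually stands for a synthetic bacterial lipopeptide sensed at the cell surface by TLR2, which signals through the adaptor MyD88 to the transcription factor NF-kB. SeV usually stands for Sendai virus, whose RNA is sensed in the cytosol by RIG-I through the adaptor MAVS. cGAMP, given in the labels as 3',3'-cGAMP, is a cyclic dinucleotide that binds STING. RIG-I and STING both lead through the kinase TBK1 to IRF3, to interferon beta and from there to interferon-stimulated genes, and both also engage NF-kB. The comparison with the pairs shows what the third ligand added in each case.

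Each gene's expression was read as its number of distinct molecules, marked by unique molecular identifiers (UMIs). The 12 libraries held 110231 to 277388 counts, and the triplet libraries were the deepest, with 212872 to 277388. In the 24 libraries used, 1 count was worth 3.88 to 12.7 CPM (counts scaled to a common total per library, after TMM scaling), so weakly expressed genes rest on a handful of molecules. Of 9 dendritic cell markers, 8 had counts in the triplet and Kmo was at 0, and all 12 macrophage markers had counts. GM-CSF cultures of marrow are known to hold cells of both kinds. Summed dendritic cell markers lay at 3687 to 3844 CPM in the triplet, above 2668 to 3071 CPM in SeV + cGAMP, 3233 to 3556 CPM in PAM + SeV and 3266 to 3685 CPM in PAM + cGAMP. Summed macrophage markers lay at 5951 to 7035 CPM in the triplet and overlapped those of SeV + cGAMP, at 5614 to 6928 CPM. They also overlapped those of PAM + SeV, at 6995 to 7104 CPM, and of PAM + cGAMP, at 6347 to 6675 CPM. The macrophage list holds Cd14, which was higher with PAM added, as given below. Its part in these sums was not tested. Neutrophil markers summed to 774 to 826 CPM with Elane and Mpo at 0, and all 8 T cell or NK cell and all 5 erythroid markers were at 0. In such bulk samples a smaller number of cells of a type cannot be told apart from less RNA per cell.

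The 3 added ligands changed very different numbers of genes. Adding PAM to SeV + cGAMP changed 595 of 4720 tested genes (12.6%) at an adjusted p under 0.05, of which 327 rose (6.93%) and 268 fell (5.68%). Adding cGAMP to PAM + SeV changed 312 genes (6.61%), of which 196 rose (4.15%) and 116 fell (2.46%). Adding SeV to PAM + cGAMP changed 0 genes (0%) by edgeR's quasi-likelihood test and 0 by DESeq2, with 210 genes (4.45%) at an unadjusted p under 0.05. With a change of at least 2-fold asked for as well, 377 genes (214 higher, 163 lower) passed with PAM added and 174 (124 higher, 50 lower) with cGAMP added. The balance with PAM added depended on how libraries were scaled: scaled by total counts alone, 252 genes were higher and 432 lower, and the median over all tested genes went from -0.01 to -0.17 on the log2 scale. Dropping 1 library moved the number with cGAMP added most without PAM + SeV replicate 1, to 201 genes. All 3 comparisons share the triplet libraries and are not independent of each other.

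**Figure D1:**
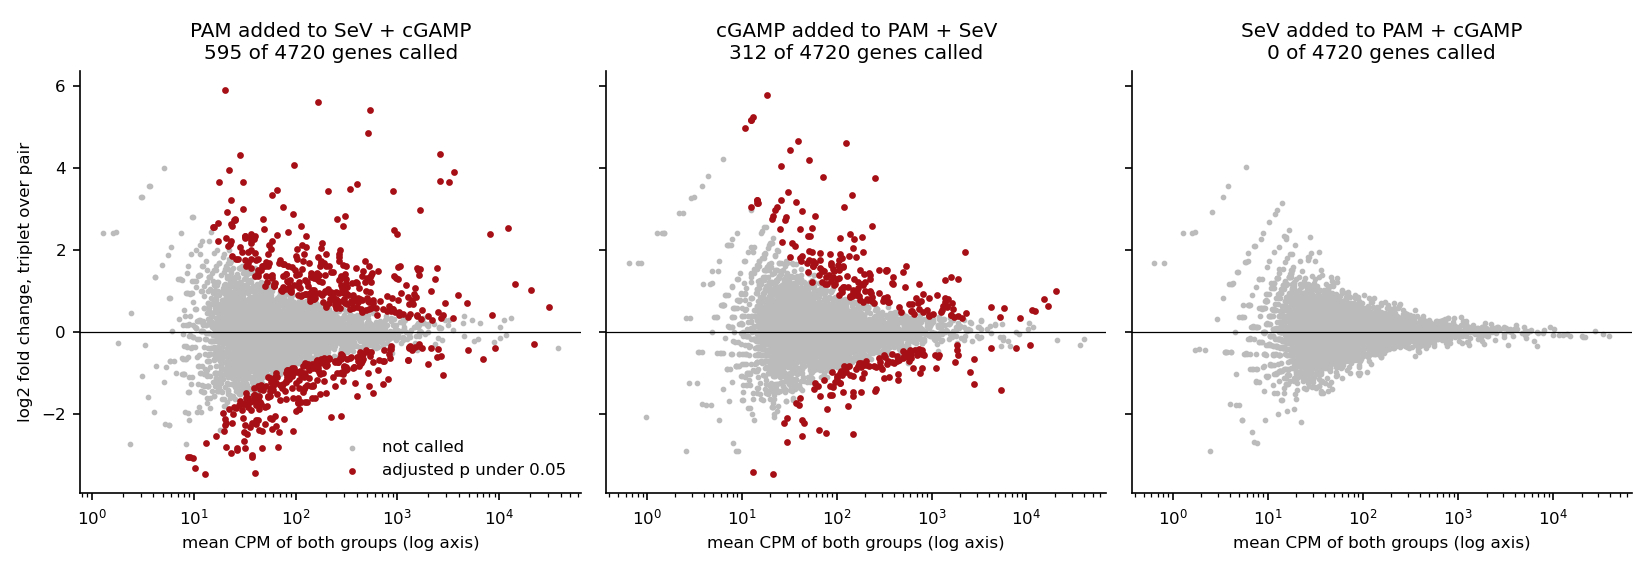
Log2 fold change of the triplet over a pair (y axis) against the mean CPM of both groups (x axis, log scale) for each tested gene, with genes at an adjusted p under 0.05 in red. Called genes number 595 when PAM was added to SeV + cGAMP, 312 when cGAMP was added to PAM + SeV and 0 when SeV was added to PAM + cGAMP.

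Adding PAM to SeV + cGAMP raised most of the tested inflammatory genes. Of 13 tested genes of the inflammatory list, 12 rose and 0 fell, against 6.93% of all genes rising, with a median log2 fold change of 3.03 beside -0.01 over every tested gene. Il6, a cytokine of the acute inflammatory response, was at 199, 270 and 255 CPM in SeV + cGAMP and at 5139, 4725 and 5004 CPM in the triplet. Every triplet library lay far above every library of the pair (log2 fold change 4.33, SE 0.17, adjusted p = 1.44e-63). Il1b, the precursor of interleukin 1 beta, went from 407, 531 and 393 CPM to 5981, 6914 and 7244 CPM (3.90, SE 0.14, adjusted p = 5.05e-69). Il1a, its close relative, went from 416, 345 and 409 CPM to 4647, 5109 and 4952 CPM (3.66, SE 0.16). Both interleukin 1 genes were among the largest rises, for which the naming rule asked for no overlap with the pair. Tnf, which the pair had raised over Ctrl, went from 3708, 3479 and 3514 CPM to 18093, 23287 and 20465 CPM (2.53, SE 0.16, adjusted p = 1.6e-35). Ptgs2, the inducible cyclooxygenase of prostaglandin synthesis, went from 52, 15 and 16.6 CPM to 1174, 924 and 1062 CPM (5.40, SE 0.32, adjusted p = 5e-39).

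The subunits of interleukin 12, which steers T helper cells, were both higher with PAM added. Il12a had 3 counts over the SeV + cGAMP libraries, at 8.66, 5.01 and 5.53 CPM, and 213 counts in the triplet, at 318, 336 and 323 CPM. The ratio was 53.7, and its 95% interval from counting error alone ran from 18.1 to 263 (adjusted p = 1.11e-26). Il12b, the subunit shared with interleukin 23, was at 17.3, 20 and 11.1 CPM in the pair and at 174, 68.1 and 161 CPM in the triplet, with replicate 2 well below the other two (3.03, SE 0.66, adjusted p = 0.000183). Il10, the main anti-inflammatory cytokine, was at 8.66, 5.01 and 11.1 CPM in the pair and at 34.9, 19.5 and 26 CPM in the triplet and did not pass the test.

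Most chemokines rose as well, though Cxcl1, Cxcl2 and Ccl3 are also in the inflammatory list. Of 18 tested chemokine genes, 12 rose and 4 fell with PAM added, beside 6.93% and 5.68% of all genes. The neutrophil-attracting Cxcl1 went from 17.3, 30 and 49.8 CPM in SeV + cGAMP to 1089, 954 and 943 CPM in the triplet (4.84, SE 0.32, adjusted p = 1.47e-32). Cxcl2 went from 580, 451 and 421 CPM to 6221, 5858 and 5692 CPM (3.64, SE 0.20), and Cxcl3 from 191, 130 and 149 CPM to 1570, 1752 and 1609 CPM (3.43, SE 0.28). These 3 genes are close copies of each other, so reads shared among them may not be resolved. Ccl3, Ccl4 and Ccl5, chemokines that attract monocytes and T cells, rose by log2 fold changes of 2.38, 1.15 and 1.02. The monocyte chemokines Ccl2 and Ccl7 rose by 1.43 and 1.60. Cxcl9, an interferon-induced ligand of CXCR3, moved the other way, from 910, 826 and 830 CPM to 291, 365 and 255 CPM (-1.49, SE 0.19, adjusted p = 2.05e-11). Cxcl11, Ccl12 and Ccl6 fell with it. Cxcl10, the third CXCR3 ligand, was at 9616, 9567 and 10701 CPM in the pair and at 11667, 12257 and 12670 CPM in the triplet (0.29, adjusted p = 0.264). The groups did not overlap for Cxcl10, and 5 of 18 alternatives passed it, with adjusted p from 0.000808 to 0.661 over all of them.

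Promoters of the risers were searched for a sequence like the binding site of NF-kB, here GGGA, any base and TTTCC, on either strand. The window ran from 250 bases before the start site to 50 bases from it on, in RefSeq's annotation of the mouse build GRCm38.p6. Of 260 PAM-added risers with a promoter in the table, 8 (3.08%) held it, namely Cxcl1, Cxcl2, Cxcl3, Gbp5, Il6, Mdfic, Nfkb2 and Nfkbia. The same letters were in 27 of 3807 tested genes with a promoter (0.709%) and in 126 of all 27025 promoters (0.466%). They were in 0 of 146 genes that rose and 1 of 87 (1.15%) that fell with cGAMP added, and in 2 of 209 (0.957%) that fell with PAM added. A sequence like the interferon-stimulated response element, here GAAA, any 2 bases and GAAA, was in 7.69% of the PAM-added and 6.16% of the cGAMP-added risers and in 6.7% and 12.6% of the genes that fell, beside 5.2% of the tested genes. A sequence like the AP-1 site, TGA, any base and TCA, was in 8.85% of the PAM-added and 6.85% of the cGAMP-added risers and in 12.9% and 13.8% of the genes that fell, beside 6.83% of the tested genes. For both of these sequences the highest share was thus among genes that fell with cGAMP added, of which 87 had a promoter. A match is a description of letters and no evidence of binding. The 250 bases before the start site are shown for Il6, Cxcl1, Cxcl2, Cxcl3 and Nfkbia because these risers hold the NF-kB-like letters and are described by their values here. The sequences run 5′ to 3′ on the gene's strand, with every match to the 3 motifs in capitals. The windows lie at chr5:30012864-30013113 for Il6 (plus strand), chr5:90890995-90891244 for Cxcl1 (plus strand), chr5:90903649-90903898 for Cxcl2 (plus strand), chr5:90785851-90786100 for Cxcl3 (plus strand) and chr12:55492648-55492897 for Nfkbia (minus strand). Il6 also holds an AP-1-like match, TGAGTCA, near the 5′ end.
Il6: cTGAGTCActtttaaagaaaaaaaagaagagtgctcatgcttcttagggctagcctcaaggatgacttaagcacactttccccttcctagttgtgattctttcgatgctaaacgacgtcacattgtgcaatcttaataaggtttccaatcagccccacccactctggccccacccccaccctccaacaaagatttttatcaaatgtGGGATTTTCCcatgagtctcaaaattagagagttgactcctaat
Cxcl1: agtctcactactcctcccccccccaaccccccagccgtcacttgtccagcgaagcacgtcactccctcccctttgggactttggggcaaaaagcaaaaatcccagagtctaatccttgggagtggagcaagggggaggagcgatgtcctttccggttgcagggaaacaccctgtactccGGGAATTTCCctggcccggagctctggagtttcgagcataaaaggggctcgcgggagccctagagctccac
Cxcl2: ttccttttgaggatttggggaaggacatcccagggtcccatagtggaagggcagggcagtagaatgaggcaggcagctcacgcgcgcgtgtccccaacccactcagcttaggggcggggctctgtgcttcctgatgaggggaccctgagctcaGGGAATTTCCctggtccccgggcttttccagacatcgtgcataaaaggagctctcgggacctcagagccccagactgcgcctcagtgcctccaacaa
Cxcl3: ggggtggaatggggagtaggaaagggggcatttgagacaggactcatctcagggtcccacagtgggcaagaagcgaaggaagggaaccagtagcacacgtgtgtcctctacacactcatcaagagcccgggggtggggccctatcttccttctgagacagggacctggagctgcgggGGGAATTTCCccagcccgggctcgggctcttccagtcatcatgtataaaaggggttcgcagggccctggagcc
Nfkbia: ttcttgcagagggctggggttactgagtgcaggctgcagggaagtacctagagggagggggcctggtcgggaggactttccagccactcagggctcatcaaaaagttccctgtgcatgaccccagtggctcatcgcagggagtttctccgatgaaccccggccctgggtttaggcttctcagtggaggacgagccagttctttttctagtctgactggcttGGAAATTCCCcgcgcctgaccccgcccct
Counted from 1 at the 5′ end, the NF-kB-like letters begin at position 207 in Il6 (GGGATTTTCC), 180 in Cxcl1, 154 in Cxcl2 and 178 in Cxcl3 (GGGAATTTCC in these 3), and 222 in Nfkbia, where they read on the other strand and appear as GGAAATTCCC.

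Of 18 tested NF-kB subunits, inhibitors and feedback genes, 12 rose and 0 fell with PAM added, beside 6.93% and 5.68% of all genes, and 6 did not pass. Of these risers, Nfkbia, Nfkbiz and Tnfaip3 are also in the inflammatory list. The median log2 fold change was 1.06 and the lowest -0.64. With cGAMP added 2 rose and 1 fell, beside 4.15% and 2.46%, with a median of -0.07. Nfkbia, the inhibitor that NF-kB induces to shut itself off, went from 1066, 831 and 874 CPM in SeV + cGAMP to 1674, 1518 and 1718 CPM in the triplet (0.84, SE 0.12, adjusted p = 6.61e-10). Nfkbiz, a nuclear co-activator of late NF-kB targets such as Il6, went from 60.6, 70.1 and 71.9 CPM to 244, 277 and 333 CPM (2.03, SE 0.26). Zc3h12a, an RNase that destroys Il6 transcripts, went from 17.3, 45.1 and 27.7 CPM to 209, 204 and 172 CPM (2.58, SE 0.32, adjusted p = 2.74e-12). Activators and brakes were thus both higher. Of 11 tested genes of TLR2 recognition and MyD88 signalling, 4 rose and 0 fell, while the median was -0.08 and 5 of the 11 had a positive log2 fold change. With cGAMP added 0 rose and 1 fell, Myd88, with a median of -0.44. That call was lost without any of 5 libraries, PAM + SeV replicate 1 (0.0849) or 3 (0.366) or triplet replicate 1 (0.179), 2 (0.0721) or 3 (0.0513), with a range of 0.00962 to 0.367. Cd14, the co-receptor that hands lipids to TLRs, went from 251, 340 and 243 CPM to 1659, 1314 and 1729 CPM (2.47, SE 0.16), and Tlr1, the partner of TLR2, rose by 1.65, a call lost without replicate 3 of all groups (0.0589, range 0.000158 to 0.0589). The rise of Irak3, a brake on MyD88 signalling, was lost without triplet replicate 1 (adjusted p = 0.105) or SeV + cGAMP replicate 3 (0.18), with a range of 0.0109 to 0.26 over the alternatives. Tlr2 was at 243, 245 and 277 CPM in the pair and at 477, 482 and 469 CPM in the triplet (0.89, SE 0.18, adjusted p = 5.88e-05), a call lost with the 24 libraries thinned to equal totals (0.219, range 4.89e-06 to 0.219).

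Maturation genes rose in part. Of 11 tested genes of costimulation and maturation, 7 rose and 1 fell with PAM added, beside 6.93% and 5.68% of all genes. The rise of Cd83 was lost without triplet replicate 3 (0.0576) or SeV + cGAMP replicate 3 (0.0829), with a range of 0.00357 to 0.373. Cd40, through which T cells license dendritic cells, went from 485, 481 and 548 CPM to 1422, 1358 and 1745 CPM (1.57, SE 0.16). Ccr7, the receptor for migration to lymph nodes, went from 286, 305 and 354 CPM to 570, 555 and 531 CPM (0.80, SE 0.17, adjusted p = 9.77e-05), while the adhesion molecule Icam1 fell by 0.95 on the log2 scale. The summed dendritic cell markers, given above, were also higher in the triplet than in this pair. Their list holds Ccr7 and H2-Ab1, and their part in these changes was not tested. Among cytokines outside the inflammatory list 7 of 15 rose and 2 fell, and of 11 oxidative stress genes 4 rose and 0 fell, to be read beside the same shares over all genes. Inhba, a subunit of activin A, went from 95.3, 45.1 and 55.3 CPM to 919, 574 and 734 CPM (3.60, SE 0.30), and the endothelin gene Edn1 from 52, 90.1 and 71.9 CPM to 469, 555 and 588 CPM (2.83, SE 0.31). Nos2, the inducible nitric oxide synthase, went from 8.66, 15 and 5.53 CPM to 101, 92.4 and 130 CPM (3.32, SE 0.57, adjusted p = 7.87e-07). Of the oxidative stress genes, the cystine transporter Slc7a11 rose by 2.58 (SE 0.24) and the mitochondrial superoxide dismutase Sod2 by 1.52 (SE 0.11). The other two, Txnrd1 and Sqstm1, were both lost without triplet replicate 2 (0.0993 and 0.115), and Sqstm1 also without SeV + cGAMP replicate 2 (0.0792) and when scaled by total counts alone (0.0885), with ranges of 5.47e-05 to 0.11 and 0.000514 to 0.392. Socs3, which blocks cytokine receptor signalling, went from 104, 35 and 71.9 CPM to 376, 472 and 479 CPM (2.74, SE 0.25).

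Among the largest rises by the naming rule were also Tarm1, an activating receptor of myeloid cells, which went from 26, 10 and 0 CPM to 171, 195 and 177 CPM, and Batf, a transcription factor of the AP-1 family, with 1 count in the pair and 35 in the triplet (ratio 26.5, counting interval 4.45 to 1080). Epha4, an ephrin receptor, had 2 and 39 counts (ratio 14.8, interval 3.82 to 126). The largest falls were genes at modest levels. Ccr2, the receptor by which monocytes leave the bone marrow, went from 34.7, 80.1 and 83 CPM in SeV + cGAMP to 3.88, 4.87 and 15.6 CPM in the triplet (-3.07, SE 0.64, adjusted p = 8.38e-05). Ccnd1, the cyclin of early G1, went from 86.6, 60.1 and 77.5 CPM to 7.75, 9.73 and 0 CPM (-3.44, SE 0.67). The naming rule asked for no overlap between the groups, so its absence in these falls is no separate result. Lpxn, a paxillin relative of focal adhesions, and Slc43a2, an amino acid transporter, fell by 2.82 and 2.84 on the log2 scale, and Smim14, Slc8a1, Tmem37 and Iqgap2 completed the 8 falls, with log2 fold changes of -3.02 to -2.51. The call for Iqgap2 was lost without replicate 3 of all groups (log2 fold change -1.94, adjusted p = 0.102, range over alternatives 0.00069 to 0.102). Abcg1, a cholesterol exporter, fell from 459, 621 and 719 CPM to 217, 161 and 234 CPM (-1.58, SE 0.20), while Ch25h, the cholesterol 25-hydroxylase, rose by 1.62.

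**Figure D2:**
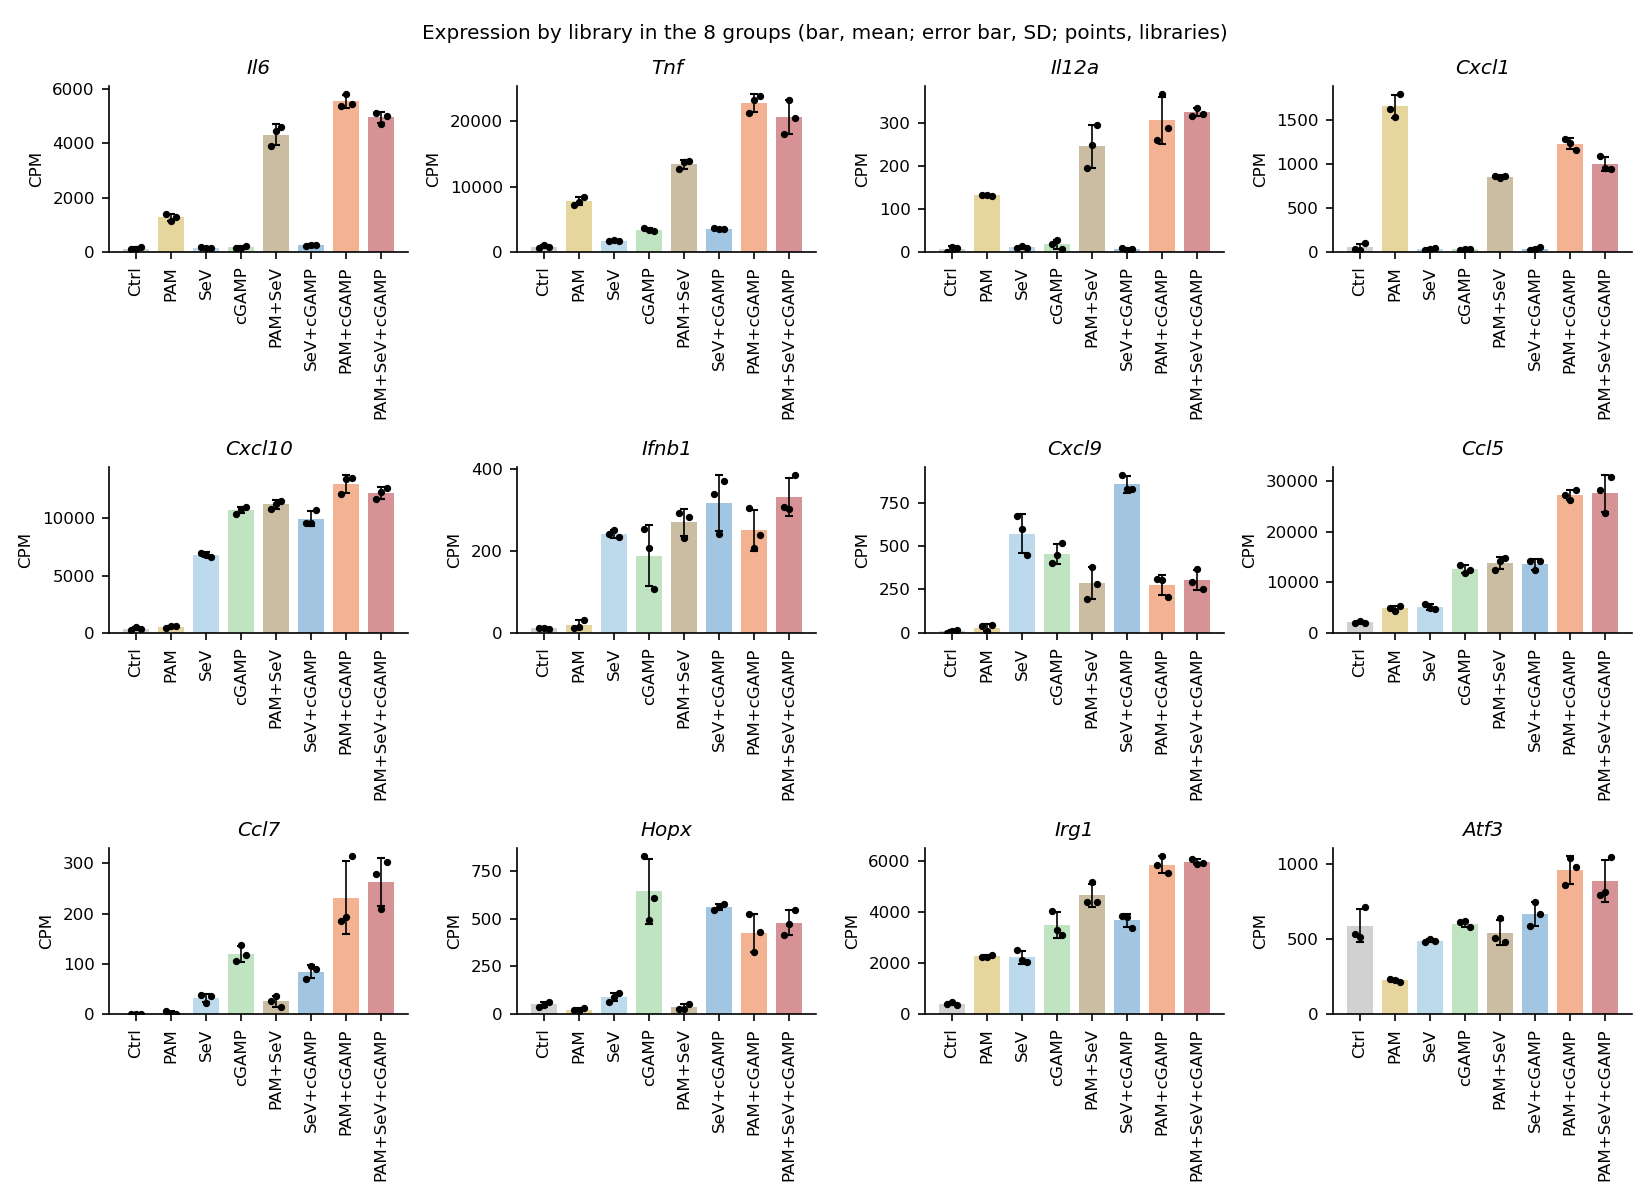
CPM of 12 genes (y axis, linear) in the 8 groups (x axis), with bars for means, error bars for SD and 1 point per library (n = 3). Il6, Tnf, Il12a and Cxcl1 are highest in the groups that received PAM, Cxcl10 and Ifnb1 in those that received SeV or cGAMP, and Hopx in those that received cGAMP.

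Adding cGAMP to PAM + SeV raised some interferon-response genes further. Of 15 tested interferon-response genes 4 rose and 0 fell, beside 4.15% of all genes rising, with a median log2 fold change of 0.12 against 0.03 over all genes. Oasl1, an interferon-induced relative of the oligoadenylate synthetases, stood out, at 861, 1102 and 810 CPM in PAM + SeV and at 3271, 3776 and 3619 CPM in the triplet (1.93, SE 0.19, adjusted p = 9.47e-17). It was at 838, 1017 and 953 CPM with SeV alone, at 2910, 2509 and 2549 CPM with cGAMP alone, at 2911, 2994 and 2794 CPM in SeV + cGAMP and at 3148, 3908 and 3534 CPM in PAM + cGAMP. Every library with cGAMP thus lay above every library that had SeV without cGAMP. Isg15, a ubiquitin-like modifier, went from 1243, 1340 and 1225 CPM to 2256, 1902 and 1989 CPM (0.69, SE 0.14). Cmpk2 and Rsad2, neighbouring antiviral genes, rose by 0.58 and 0.51. Both calls depended on single libraries: without PAM + SeV replicate 1 the adjusted p was 0.055 for Cmpk2 and 0.142 for Rsad2, and Rsad2 was also lost without triplet replicate 1 (0.0742) or 3 (0.0642), with ranges over the alternatives of 1.99e-08 to 0.0644 and 2.12e-07 to 0.162.

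Ifnb1, which encodes interferon beta, and the interferon-stimulated genes Cxcl10 and Ifit1 were not called. Ifnb1 was at 293, 231 and 283 CPM in PAM + SeV and at 306, 302 and 385 CPM in the triplet (0.30, SE 0.24, adjusted p = 0.589). Cxcl10 was at 10794, 11261 and 11542 CPM and at 11667, 12257 and 12670 CPM (0.12, adjusted p = 0.798). Ifit1, a blocker of viral RNA translation, was at 4962, 5459 and 5010 CPM and at 5977, 5785 and 5864 CPM (0.19, SE 0.13, adjusted p = 0.515). The triplet libraries lay above those of the pair for all 3 of these genes, by margins that did not pass the test. With PAM added to SeV + cGAMP, Ifnb1 (0.07, SE 0.23) and Ifit1 (0.27, SE 0.13) did not pass either. The fit of the 8 groups alone (0.00332) and that of the groups compared (0.0209) did pass Ifit1, with adjusted p from 0.00332 to 0.632 over the alternatives. Of the 15 tested genes of the interferon-response list 1 rose, Isg15, and 1 fell, Ifit3, with PAM added, about the share over all genes (6.93% and 5.68%). The fall of Ifit3, from 3119, 2964 and 3580 CPM to 2329, 1985 and 2119 CPM (-0.59, adjusted p = 0.00683), was lost without triplet replicate 2 (0.0729) or 3 (0.0528) or SeV + cGAMP replicate 3 (0.111), with adjusted p up to 0.152 over the alternatives. Reads shared among the Ifit and Oas families may not be resolved.

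cGAMP raised some inflammatory and chemokine genes further. Of the 13 tested inflammatory genes 5 rose and 2 fell, and of 18 chemokines 5 rose and 2 fell, beside 4.15% and 2.46% of all genes. Ccl3 counts among the rises of both lists. Of the inflammatory calls, the rise of Tnfaip3 was lost without PAM + SeV replicate 1 (0.0619) or 2 (0.0561) or triplet replicate 1 (0.0594), with a range of 0.000677 to 0.119, and the fall of Nfkbiz without PAM + SeV replicate 3 (0.0858, range 0.000306 to 0.263). Tnf went from 12658, 13721 and 13918 CPM in PAM + SeV to 18093, 23287 and 20465 CPM in the triplet (0.62, SE 0.15, adjusted p = 0.00173), a call lost without replicate 2 of all groups (0.0821, range 2.12e-10 to 0.0821). Ptgs2 went from 462, 634 and 573 CPM to 1174, 924 and 1062 CPM (0.91, SE 0.18, adjusted p = 8.54e-05). Neither gene overlapped between the groups. Ccl5 went from 12401, 14284 and 14833 CPM to 28259, 23706 and 30948 CPM (1.00, SE 0.14, adjusted p = 6.27e-09), and Ccl4 from 10182, 12038 and 11719 CPM to 17678, 18533 and 22502 CPM (0.79, SE 0.15). Ccl7 went from 26.6, 35.6 and 13.2 CPM to 279, 209 and 302 CPM (3.34, SE 0.44, adjusted p = 7.77e-10) and Ccl2 from 284, 273 and 257 CPM to 919, 706 and 818 CPM (1.59, SE 0.22). Ccl2 and Ccl7 were therefore higher in the triplet than in PAM + SeV and in SeV + cGAMP, yet at the level of PAM + cGAMP, where Ccl7 was at 186, 194 and 315 CPM. Il6, in contrast, was at 3906, 4475 and 4602 CPM in PAM + SeV and 0.19 higher in the triplet on the log2 scale, which did not pass (adjusted p = 0.486).

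Cxcl3, Il18, Icam1 and Il1b fell when cGAMP was added. Cxcl3 was at 10207, 10114 and 10978 CPM with PAM alone, at 4944, 2993 and 4115 CPM in PAM + SeV, at 1781, 2171 and 1820 CPM in PAM + cGAMP and at 1570, 1752 and 1609 CPM in the triplet. From PAM + SeV to the triplet it fell by 1.28 on the log2 scale (SE 0.19, adjusted p = 8.9e-08). Il18, the precursor of another cytokine of the interleukin 1 family, fell from 169, 231 and 263 CPM to 105, 58.4 and 72.9 CPM (-1.48, SE 0.28, adjusted p = 2.69e-05), and Icam1 from 888, 753 and 849 CPM to 333, 472 and 547 CPM (-0.89, SE 0.16). Il1b was 0.40 lower on the log2 scale (SE 0.11, adjusted p = 0.00945), a call lost without triplet replicate 1 (0.114), with adjusted p from 1.3e-05 to 0.121 over the alternatives. Il10 had 1 count in PAM + SeV and 18 in the triplet, that is 11.9-fold (counting interval 1.88 to 496, adjusted p = 0.0287). That call was lost without triplet replicate 1 (0.138) or PAM + SeV replicate 1 (0.12) or 2 (0.195), and by DESeq2 (0.0975), with adjusted p of 0.0277 to 0.296 over the alternatives. Il12b was at 44.4, 35.6 and 52.7 CPM in the pair (1.62, SE 0.55, adjusted p = 0.0522), and 6 of 17 alternatives passed it, among them the fit without triplet replicate 2 (0.0197), with adjusted p from 0.000397 to 0.292 over the alternatives.

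Among the 10 largest rises with cGAMP added by the naming rule, which include Ccl7, were Hopx, Rgcc and Zfp36l2. Hopx, a homeodomain protein that binds no DNA, was at 26.6, 23.7 and 52.7 CPM in PAM + SeV and at 415, 472 and 547 CPM in the triplet (3.75, SE 0.38, adjusted p = 7.33e-16). Rgcc, a regulator of cyclin-dependent kinase 1, was at 0, 11.9 and 13.2 CPM and at 225, 209 and 286 CPM (4.59, SE 0.53, adjusted p = 8.45e-13). Zfp36l2, a protein that promotes decay of AU-rich transcripts, was at 35.5, 17.8 and 26.3 CPM and at 252, 204 and 182 CPM (3.05, SE 0.40). All 3 genes were as high or higher in SeV + cGAMP, where Hopx was at 546, 561 and 575 CPM. Ccne1, the cyclin of the entry into S phase, went from 26.6, 5.93 and 0 CPM to 132, 151 and 120 CPM (3.76, SE 0.63), and Pcna, the sliding clamp of DNA replication, from 169, 166 and 198 CPM to 481, 496 and 542 CPM (1.50, SE 0.22, adjusted p = 1.69e-08). Of the 15 genes of the cell cycle list 5 were tested, of which Pcna rose and Tuba1b fell, beside 4.15% rising and 2.46% falling of all genes. The call for Tuba1b was lost without PAM + SeV replicate 3 (0.174) or triplet replicate 1 (0.0716), with a range of 0.00113 to 0.174. With PAM added H2afz rose and Mcm6, Tuba1b and Pcna fell, with a median of -0.70 over the 5, beside 6.93% rising and 5.68% falling of all genes. H2afz was lost without triplet replicate 1 (0.0543) or 2 (0.0583) or SeV + cGAMP replicate 2 (0.0774) or 3 (0.165), with a range of 0.0157 to 0.457, and Mcm6 without triplet replicate 2 (0.15) or 3 (0.0668) or SeV + cGAMP replicate 2 (0.163), with a range of 0.00619 to 0.409. Pcna fell from 814, 781 and 874 CPM (-0.70, SE 0.17), a call lost with the 24 libraries thinned to equal totals (0.052, range 8.47e-06 to 0.052). Atm, the kinase that senses DNA breaks, had 1 count in PAM + SeV and 42 in the triplet (ratio 27.8, counting interval 4.72 to 1120). Plagl1, a zinc-finger factor, had 1 and 49 (32.4, interval 5.55 to 1300), and Intu, a planar polarity gene, 2 and 63 (20.8, interval 5.53 to 176). Klf8 with 2 and 36 counts (11.9, interval 3.06 to 102) and Ppp2r1b with 3 and 44 (9.69, interval 3.11 to 48.8) completed the 10 largest rises. The call for Klf8 was lost without replicate 3 of all groups (adjusted p = 0.0982, range 0.000806 to 0.0982).

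Of the 11 tested costimulation genes 4 rose and 2 fell when cGAMP was added, beside 4.15% and 2.46% of all genes. Of these, Cd200 was lost without PAM + SeV replicate 1 (0.146) or 3 (0.288) or triplet replicate 1 (0.289), 2 (0.0592) or 3 (0.0518), with a range of 0.0241 to 0.434, and Cd69 without triplet replicate 3 (0.109, range 2.38e-05 to 0.229). Cd86, a ligand of CD28 on T cells, went from 133, 196 and 184 CPM to 516, 472 and 469 CPM (1.48, SE 0.23, adjusted p = 3.36e-07). With PAM added it did not pass (0.40, adjusted p = 0.212), while Cd40 passed with PAM added and was 0.31 higher on the log2 scale with cGAMP added (adjusted p = 0.231). Among the 8 largest falls was Cebpd, a transcription factor of the acute phase, from 222, 255 and 283 CPM in PAM + SeV to 34.9, 43.8 and 57.3 CPM (-2.51, SE 0.34, adjusted p = 1.4e-09). It was at 34.7, 40 and 38.7 CPM in SeV + cGAMP and at 42.2, 97.2 and 69.3 CPM in PAM + cGAMP, so it was low in all 3 groups with cGAMP. Spata13, Tfec, Cd1d1, Ptpro and Tagap fell by 1.88 to 2.54 on the log2 scale. Slc8a1, a sodium and calcium exchanger, was at 44.4, 35.6 and 79 CPM in PAM + SeV, at 43.3, 65.1 and 60.9 CPM in SeV + cGAMP and at 15.5, 0 and 5.21 CPM in the triplet. It fell with cGAMP added (-2.70, adjusted p = 0.00173) and with PAM added (-2.83, adjusted p = 0.000182). The first call was lost without PAM + SeV replicate 3 (0.0655, range 0.000689 to 0.171), and that of Vnn3, another of the falls, without triplet replicate 3 (0.051, range 0.00297 to 0.154). Calls for Ptpro and Cd1d1 were lost without replicate 2 of all groups (adjusted p = 0.102 and 0.0651, with ranges of 3.04e-05 to 0.102 and 0.000646 to 0.0651).

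**Figure D3:**
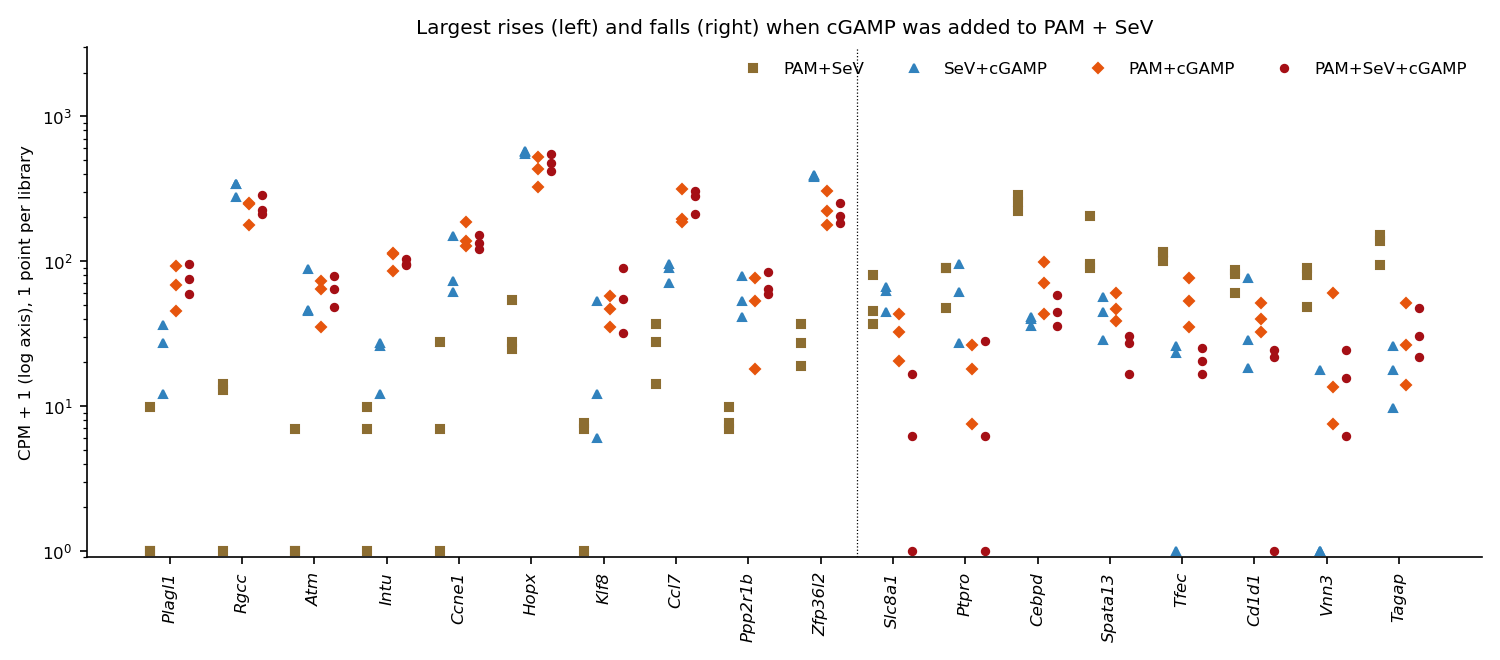
CPM plus 1 (y axis, log scale) of the 10 largest rises and 8 largest falls when cGAMP was added to PAM + SeV, with 1 point per library (n = 3) and a marker for each of the 4 groups. For Hopx and Rgcc the PAM + SeV libraries lie far below the other groups, and for Cebpd and Tagap they lie above them.

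Adding SeV to PAM + cGAMP left every tested gene short of the threshold, and for abundant genes the data limit how large a change could be. Of 859 genes averaging 200 CPM or more, 849 (98.8%) had a 95% interval of the log2 fold change within 1 unit of 0, that is within 2-fold either way. At 50 CPM or more it was 1953 of 2728 genes (71.6%), and over all 4720 tested genes 2038 (43.2%), so a 2-fold change in a weakly expressed gene would not have been detectable in many cases. Ifnb1 was at 304, 207 and 239 CPM in PAM + cGAMP and at 306, 302 and 385 CPM in the triplet (0.42, 95% interval -0.06 to 0.89). Cxcl10 was at 12120, 13434 and 13474 CPM in PAM + cGAMP, and the triplet differed by -0.09 (interval -0.41 to 0.22). Ifit1 was at 6364, 7543 and 6702 CPM, and the triplet differed by -0.23 (interval -0.48 to 0.03). Il6 was at 5393, 5826 and 5442 CPM and Tnf at 21202, 23226 and 23892 CPM, with log2 fold changes of -0.16 and -0.14. For Ifit1 and Il6 the triplet libraries all lay below those of PAM + cGAMP, by margins that did not pass the test, and for Cxcl10, Tnf and Ifnb1 the groups overlapped or met.

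SeV did change genes in other settings. Alone it raised 588 genes and lowered 318 against Ctrl, 906 in all (19.2%), and added to PAM it raised 621 and lowered 308, 929 in all (19.7%). Over the 588 genes that SeV alone had raised, by a median log2 fold change of 1.84, the median change when SeV was added to PAM + cGAMP was 0.02, with a 5th percentile of -0.39 and a 95th of 0.55. Over the 318 that it had lowered, with a median of -1.34, the median was -0.02. Those lists share no library with the comparison they are read in. Added to cGAMP alone, SeV changed 2 genes (0.0424%), Cxcl9 (0.89) and Slco3a1 (1.33), a transporter of organic anions, both with an adjusted p of 0.011. Cxcl9 was at 402, 446 and 519 CPM with cGAMP and at 910, 826 and 830 CPM in SeV + cGAMP, yet at 312, 305 and 208 CPM in PAM + cGAMP and at 291, 365 and 255 CPM in the triplet. SeV and cGAMP alone differed from each other in 78 genes (1.65%), of which 13 were higher with SeV.

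The number of genes a ligand changed thus differed with the other ligands given. PAM changed 817 genes on Ctrl (17.3%), 564 on SeV (11.9%), 596 on cGAMP (12.6%) and 595 on the pair. cGAMP changed 1028 on Ctrl (21.8%), 1276 on PAM (27%), 98 on SeV (2.08%) and 312 on PAM + SeV. SeV changed 906 on Ctrl, 929 on PAM, 2 on cGAMP and 0 on PAM + cGAMP. PAM thus changed 564 to 817 genes in each setting, while SeV and cGAMP changed 0 to 312 where the other was present and 906 to 1276 where it was not. These comparisons share libraries and were added after the data had been seen. Libraries also differed in depth, with 61823 to 89530 counts in Ctrl and 212872 to 277388 in the triplet. With the 24 libraries thinned to equal totals, the 595 and 312 genes became 275 and 129. The part of depth in the other numbers was not tested.

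**Figure D4:**
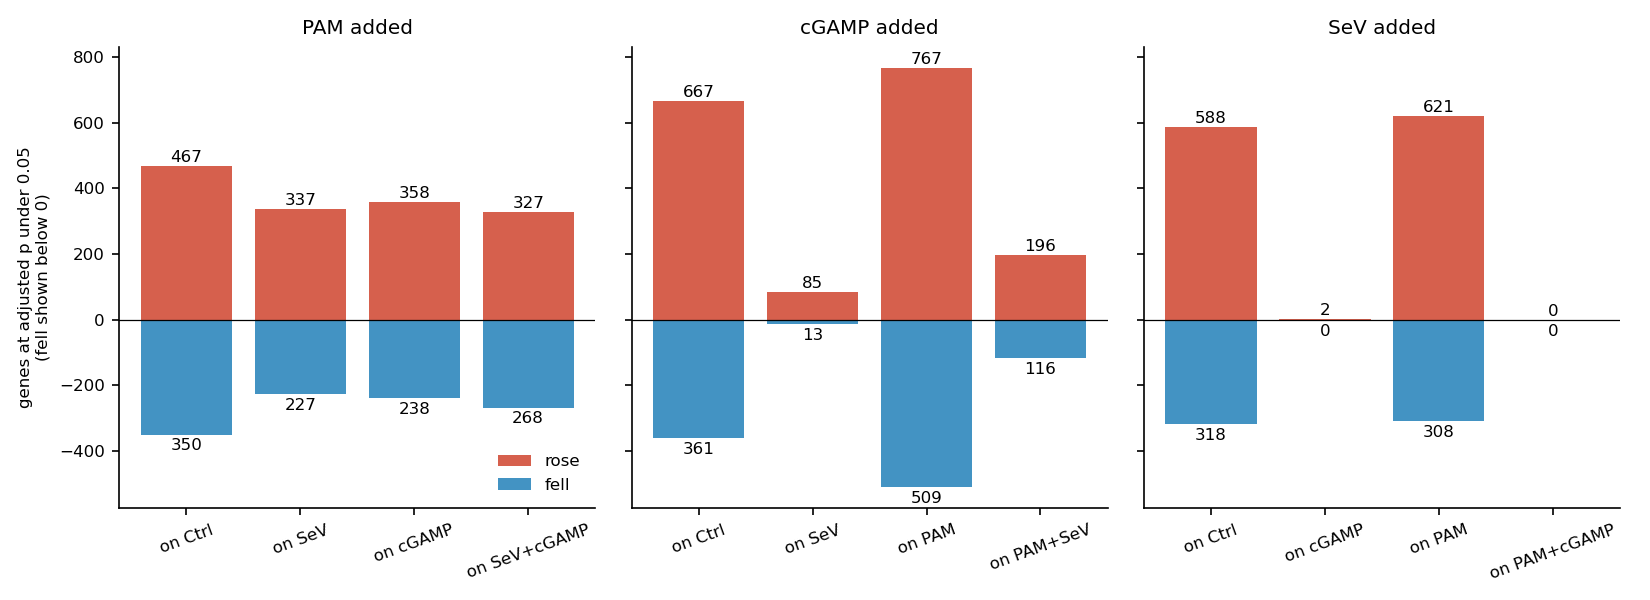
Number of genes at an adjusted p under 0.05 (y axis, rises above 0 and falls below 0) when PAM, cGAMP or SeV was added to Ctrl, to each single ligand and to the pair (x axis). SeV has 588 rises on Ctrl and 0 on PAM + cGAMP.

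Each ligand's effect in the pair was then tested against its effect alone, as the difference of both log2 fold changes. PAM differed in 188 genes (3.98%), 42 with a more positive and 146 with a more negative change on top of the pair. SeV differed in 491 genes (10.4%), 88 and 403, and cGAMP in 572 genes (12.1%), 118 and 454. The balance moved with the scaling: RLE factors gave 57 and 103 for PAM and 147 and 347 for SeV, DESeq2 gave 47 and 75 for PAM, and library size alone gave 172 and 341 for SeV and 216 and 395 for cGAMP, with medians over all genes of up to 0.23. Negative differences remained the more frequent under each of these scalings. Ifit1, which SeV alone had raised from 229, 204 and 181 CPM to 3971, 3487 and 3374 CPM, had a difference of -4.37 for SeV (SE 0.25, adjusted p = 8.1e-40) and -4.50 for cGAMP. Ifnb1 had -3.94 for SeV and -3.66 for cGAMP, and for PAM neither gene passed. Tnf had -1.23 for SeV and -1.45 for cGAMP and did not pass for PAM (-0.73, adjusted p = 0.0751), and Il6 passed for none of the 3 ligands (0.97, -0.41 and -0.29 for PAM, SeV and cGAMP). For PAM, 4 of 22 alternatives passed Tnf, with adjusted p from 0.000425 to 0.485 over all of them, and 2 passed Il6, DESeq2 (0.0478) and the fit of the 8 groups alone (0.0223), with a range of 0.0223 to 0.769. Nfkbia had -0.98 for PAM and -1.14 for cGAMP.

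A gene had to pass against each of the 3 pairs to be called above or below all of them, so with 0 genes called when SeV was added the count of 0 (0%) here was fixed by that comparison and is no separate result. At an unadjusted p under 0.05 against each pair there were 8 genes above and 9 below by edgeR's quasi-likelihood test, and DESeq2 also called 0. The triplet as a whole was close to PAM + cGAMP: over 2556 genes of at least 50 CPM on average, the root mean square difference of group means was 0.28 on the log2 scale. It was 0.495 from PAM + SeV and 0.636 from SeV + cGAMP, and 1.36 from Ctrl. Of all other groups of the series only PAM + HMW + cGAMP was closer, at 0.257, where HMW is another ligand of the series named by its abbreviation. These distances are a description, since libraries differ in depth and group means carry their own noise.

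A three-way interaction, the part of the triplet that single ligands and pairs do not give when log2 effects add, was called in 13 genes (0.275%), 10 positive and 3 negative, with 331 genes at an unadjusted p under 0.05. The 3 negative genes were Atf3, Il6 and Arhgap25. Atf3, a stress-induced repressor of cytokine genes, was at 534, 516 and 716 CPM in Ctrl, at 232, 228 and 211 CPM with PAM, at 506, 640 and 481 CPM in PAM + SeV, at 861, 1043 and 983 CPM in PAM + cGAMP and at 795, 813 and 1047 CPM in the triplet. The low value with PAM alone was thus absent from each combination, and the interaction was -1.87 (SE 0.33, adjusted p = 6.64e-05). Il6 rose with PAM from 88.9, 96 and 172 CPM to 1399, 1140 and 1303 CPM, rose further in both pairs that hold PAM and no further in the triplet, for an interaction of -2.18 (SE 0.47, adjusted p = 0.00692). Arhgap25, a GTPase-activating protein for Rac, was at 496, 444 and 526 CPM in Ctrl and between 6.27 and 175 CPM in every other library of the 8 groups (-3.46, SE 0.85, adjusted p = 0.0291). Ms4a6d, a macrophage membrane protein, was at 127, 72 and 118 CPM in Ctrl, at 897, 793 and 806 CPM with PAM, at 617, 745 and 653 CPM with SeV and at 1151, 959 and 974 CPM in the triplet (1.86, SE 0.36, adjusted p = 0.00079). Oas2 (3.74), Dram1 (2.08), Psma4 (2.03) and Rtp4 (1.79) were the other positive genes named by the rule, with adjusted p of 0.023 to 0.0446.

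These interaction calls were fragile. Without replicate 1, 2 or 3 of all groups 2, 2 and 5 genes were called, and without PAM + cGAMP replicate 2 there were 8. The 22 alternatives took away the call of Dram1 in 16, of Arhgap25 in 11, of Psma4 in 9, of Oas2 and Rtp4 in 5 each, of Il6 in 3, of Ms4a6d in 2 and of Atf3 in 1. A single library sufficed for Oas2 (0.0523 without PAM + cGAMP replicate 2). For Arhgap25 the highest adjusted p with 1 library left out was 0.216 without PAM + cGAMP replicate 2, and it was also lost without PAM + SeV replicate 2 (0.127), SeV + cGAMP replicate 2 (0.0989) or 3 (0.0596), triplet replicate 3 (0.0835) or PAM + cGAMP replicate 3 (0.0641). Psma4 was lost without triplet replicate 1 (0.114), SeV + cGAMP replicate 2 (0.0744) or PAM + cGAMP replicate 1 (0.0668) or 2 (0.081). Dram1 was lost without 9 of the 12 libraries of the triplet and its pairs, with adjusted p of up to 0.0997. Adjusted p over all alternatives ranged from 3.23e-06 to 0.0674 for Atf3, from 9.85e-05 to 0.545 for Il6, from 9.85e-05 to 0.109 for Ms4a6d, from 0.00533 to 0.463 for Rtp4, from 0.00633 to 0.464 for Oas2, from 0.011 to 0.877 for Psma4, from 0.015 to 0.67 for Arhgap25 and from 0.0222 to 0.464 for Dram1.

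Of the cytokines outside the inflammatory list, 5 of 15 rose and 2 fell with cGAMP added, beside 4.15% and 2.46% of all genes. Inhba went from 204, 379 and 211 CPM in PAM + SeV to 919, 574 and 734 CPM (1.46, SE 0.23, adjusted p = 2.19e-07), so that each of PAM and cGAMP raised it on top of the other ligands. Il33, an alarmin of the interleukin 1 family, had 0 counts in PAM + SeV and was at 19.4, 24.3 and 31.2 CPM in the triplet, at least 3.52-fold higher when the pair is set to 3 counts over its libraries (adjusted p = 0.00999). That call was lost without PAM + SeV replicate 2 (0.0724) or 3 (0.0626), with a range of 0.00912 to 0.16. Tnfsf10, the death ligand TRAIL, was at 62.1, 130 and 165 CPM in PAM + SeV, at 130, 155 and 205 CPM in SeV + cGAMP and at 42.6, 53.5 and 52.1 CPM in the triplet, and fell with PAM added (-1.75) and with cGAMP added (-1.33, adjusted p = 0.0164). The calls for Tnfsf10 were not checked under the alternatives.

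Of 13 tested nucleic acid sensors and their adaptors, 1 rose and 1 fell with PAM added and likewise with cGAMP added, beside 6.93% and 5.68% of all genes with PAM and 4.15% and 2.46% with cGAMP. Tmem173, which encodes STING, went from 69.3, 65.1 and 77.5 CPM in SeV + cGAMP to 7.75, 34.1 and 5.21 CPM in the triplet (-2.16, SE 0.55, adjusted p = 0.00227), a call lost without triplet replicate 1 (0.0505, range 0.000429 to 0.1). Tank, an adaptor of TBK1, rose by 1.05 (adjusted p = 4.76e-05). With cGAMP added Ifih1, the RNA sensor MDA5, rose by 0.54, which was lost without PAM + SeV replicate 1 (0.0671, range 3.1e-05 to 0.0671). Ikbke, a kinase related to TBK1, fell by 0.62 on the log2 scale, which was lost without PAM + SeV replicate 3 (0.285) or triplet replicate 1 (0.129) or 2 (0.115), with a range of 0.00162 to 0.286.

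Of 15 tested AP-1 and immediate early genes 4 rose and 1 fell with PAM added, beside 6.93% and 5.68% of all genes, and 2 rose and 0 fell with cGAMP added, beside 4.15% and 2.46%. The rise of Ier3 with PAM added was lost in 10 of 18 alternatives, with adjusted p from 0.0175 to 0.491. Among them were DESeq2 and the fits without triplet replicate 1 or 3 or SeV + cGAMP replicate 1 or 2. With PAM added Fos went from 113, 80.1 and 105 CPM to 19.4, 4.87 and 31.2 CPM (-2.37, SE 0.45, adjusted p = 1.16e-05). With cGAMP added Dusp1, a phosphatase of MAP kinases, went from 26.6, 53.3 and 79 CPM to 174, 190 and 125 CPM (1.56, SE 0.36), a call lost without replicate 1 of all groups (adjusted p = 0.0621, range 0.000128 to 0.0621). Atf3 rose by 0.69, which was lost without replicate 3 of all groups (0.199) and with the 24 libraries thinned to equal totals (0.0723), with a range of 4.79e-05 to 0.199. Of 6 genes of arginine, nitric oxide and itaconate metabolism 3 rose with PAM added. Irg1, the enzyme that makes itaconate, went from 3820, 3800 and 3375 CPM in SeV + cGAMP to 6077, 5892 and 5921 CPM (0.70, SE 0.11, adjusted p = 1.05e-08), and Slc7a2, an arginine transporter, rose by 1.50. With cGAMP added 3 of the 6 rose too, Ass1, Irg1 and Slc7a2, and each of these calls was lost when 1 library was left out. Ass1 was lost without PAM + SeV replicate 2 (0.121) or 3 (0.125) or triplet replicate 2 (0.162). Irg1 was lost without PAM + SeV replicate 1 (0.133) or 3 (0.16) or triplet replicate 1 (0.107) or 2 (0.0581). Slc7a2 was lost without any of the 6 libraries, at 0.0952 to 0.224. Over all alternatives the adjusted p of Ass1, Irg1 and Slc7a2 ran over 0.00234 to 0.428, 0.00259 to 0.256 and 0.017 to 0.363.

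The counts of the remaining lists are to be read beside the shares over all genes, 6.93% rising and 5.68% falling with PAM added and 4.15% and 2.46% with cGAMP added. Of 16 tested genes of interferon signalling and SOCS feedback 3 rose and 1 fell with PAM added, and 0 rose and 1 fell with cGAMP added. With PAM, the rise of Ifnar2 was lost without SeV + cGAMP replicate 1 or 2 and when scaled by total counts alone, with a range of 0.0037 to 0.323. The fall, Irf5, was lost without replicate 1 of all groups (0.0589, range 5.11e-07 to 0.0589). Of 12 guanylate-binding proteins and immunity-related GTPases 2 rose and 1 fell with PAM, and 1 fell with cGAMP. Gbp5, which promotes inflammasome assembly, rose by 0.70 (adjusted p = 0.00185), a call lost with the 24 libraries thinned to equal totals (0.202, range 2.03e-05 to 0.202). The fall with PAM, Gbp8, was lost without triplet replicate 1 (0.0985) or 2 (0.144) or SeV + cGAMP replicate 1 (0.0527) or 3 (0.234), with a range of 0.00726 to 0.234. The fall with cGAMP, Gbp4, was lost without triplet replicate 1 (0.109, range 1e-04 to 0.109). Of 9 genes of MHC class II presentation 1 rose and 1 fell with PAM, and of 15 of MHC class I presentation 1 rose with PAM and 1 fell with cGAMP. The class II rise was H2-Ab1 (0.30, adjusted p = 0.0314), lost without SeV + cGAMP replicate 1 (0.0533) or 3 (0.11), with a range of 0.011 to 0.422. Of the other calls, H2-DMa was lost without any 1 of the 6 libraries compared (0.0521 to 0.138, range over all alternatives 0.00415 to 0.26). Psme2 was lost without SeV + cGAMP replicate 2 (0.139, range 0.000493 to 0.139), and Psmb8 without PAM + SeV replicate 2 (0.192) or 3 (0.0506) or triplet replicate 1 (0.127), with a range of 0.00284 to 0.317. Reads shared within the MHC and guanylate-binding families may not be resolved. Of 17 genes of glycolysis and hypoxia 1 rose and 1 fell with PAM, and 0 changed with cGAMP. Hif1a, the hypoxia-inducible factor, was the rise (0.80, adjusted p = 0.00378), lost without SeV + cGAMP replicate 2 (0.0822, range 0.000735 to 0.148). Pkm, a pyruvate kinase, was the fall, lost without triplet replicate 1 (0.301) or 3 (0.178) or SeV + cGAMP replicate 2 (0.579) or 3 (0.0516), with a range of 0.00109 to 0.579. Of 15 genes of cholesterol synthesis and efflux 1 rose and 2 fell with PAM, and 3 fell with cGAMP. These 3 were Sqle, Abca1 and Ch25h, each lost when 1 library was left out. Sqle was lost without PAM + SeV replicate 1 (0.0514), 2 (0.105) or 3 (0.13) or triplet replicate 1 (0.272). Abca1 was lost without PAM + SeV replicate 1 (0.0838) or 3 (0.148) or triplet replicate 1 (0.0706) or 2 (0.117). Ch25h was lost without PAM + SeV replicate 2 (0.331) or 3 (0.121) or triplet replicate 1 (0.162) or 2 (0.165). Over all alternatives the adjusted p of Sqle, Abca1 and Ch25h ran over 0.0135 to 0.272, 0.0123 to 0.247 and 0.00125 to 0.553. Of 15 apoptosis genes 2 rose with PAM and 0 changed with cGAMP. Of 11 genes of the stress response 2 rose with PAM and 1 with cGAMP, where Ppp1r15a, a regulator of the eIF2 phosphatase, counted in both and went from 142, 88.9 and 98.8 CPM in PAM + SeV to 275, 272 and 302 CPM (1.40, SE 0.25). With SeV added 0 members of any of the 20 lists passed.

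**Figure D5:**
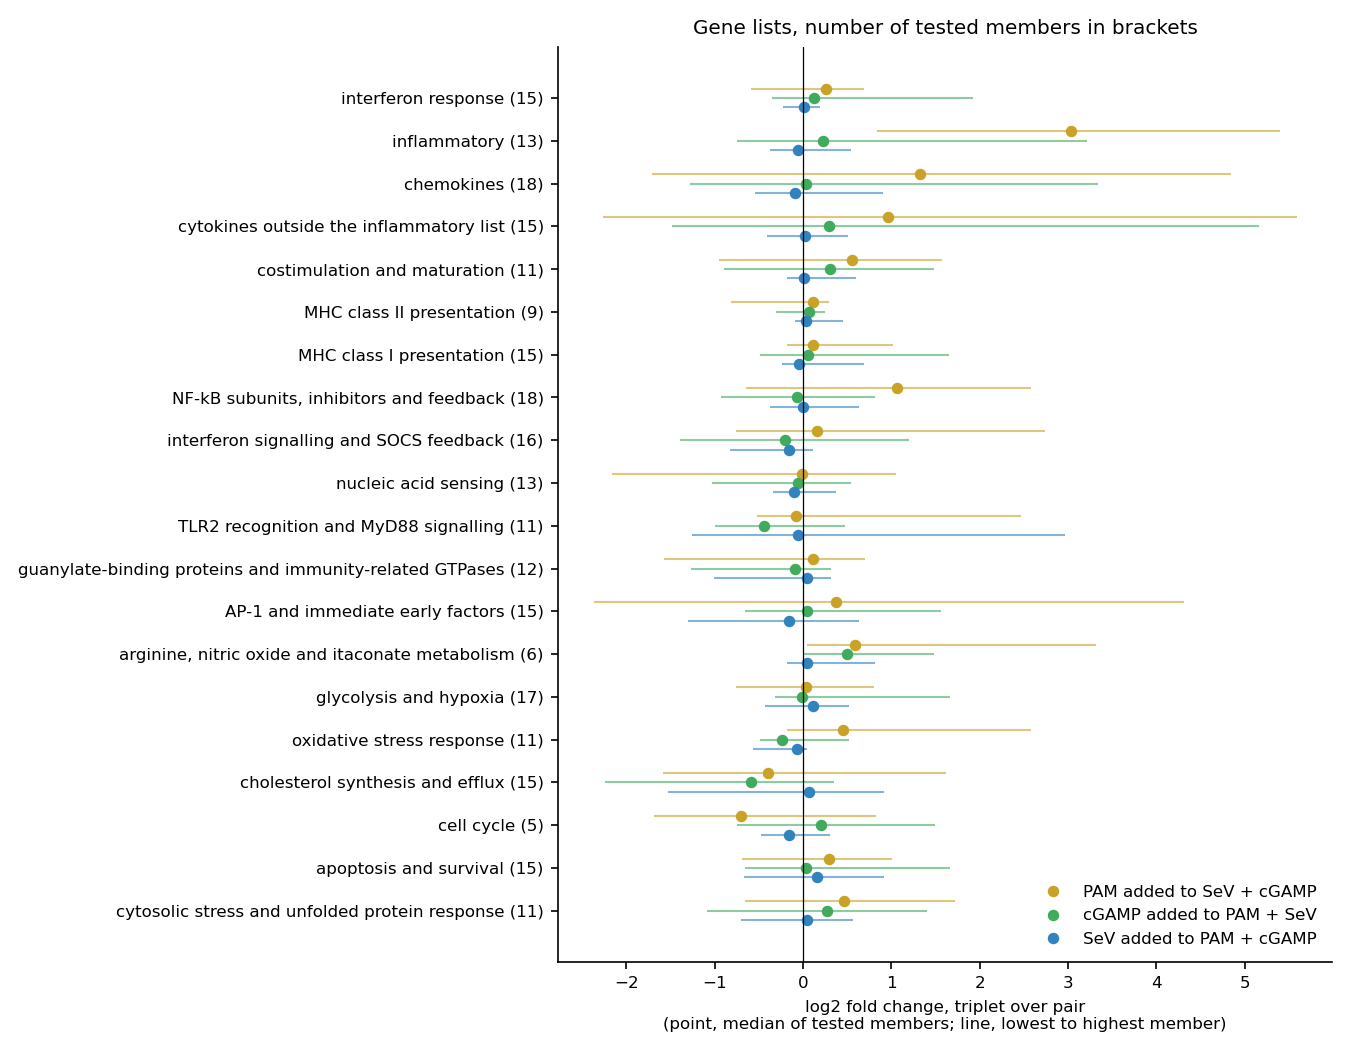
Median log2 fold change of the triplet over each pair (x axis) for the tested members of 20 gene lists (y axis, number tested in brackets), with a line from the lowest to the highest member. The inflammatory list has a median of 3.03 with PAM added, 0.23 with cGAMP added and -0.05 with SeV added.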

How the data were processed

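Whole-well mRNA of the stimulated cells was counted in UMIs. The authors deposited UMI counts per gene for 192 libraries, not normalized, and the submitters' processing notes name BWA 0.7.15 and mm10. How UMIs were collapsed and which annotation was used is not given in the sources used here. All 192 count columns matched a label, and 0 had no sample.

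Genes were kept by edgeR's filterByExpr (4720 of 23481, holding 95.7% of the counts), scaled by TMM and fitted with edgeR 4.0.16 (R 4.3.3) by the quasi-likelihood test over the 64 groups. P-values were Benjamini-Hochberg adjusted over all tested genes, and a gene was called at an adjusted p under 0.05. Above or below all 3 pairs took the largest of the 3 p-values. CPM were computed from TMM-scaled totals. DESeq2 1.42.0, other scalings and filters, thinning and left-out libraries were alternatives. Scripts were tested on simulated data. Replicates of a group differed by more than counting noise, and none was a copy.

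The rule named the 10 largest rises and 8 largest falls at 50 CPM or more without overlap, at most 5 interaction genes in each direction, a panel of 14 genes and leading list members, and other genes were named after their values were seen. The members, lists and tests were chosen with earlier results of these data known. RefSeq promoters (GRCm38.p6) gave the sequences.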

Additional observations from a re-analysis of the deposited data

Results flagged for a closer look

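In each case below a test of the difference itself passed at an adjusted p under 0.05 by edgeR's quasi-likelihood test. It set a ligand's effect on the pair against its effect alone or, for the three-way interaction, the triplet against pairs, single ligands and Ctrl. The three-way interaction passed in 13 genes. Its log2 values were 3.74 for Oas2, 2.08 for Dram1, 2.03 for Psma4, 1.86 for Ms4a6d and 1.79 for Rtp4, and -3.46 for Arhgap25, -2.18 for Il6 and -1.87 for Atf3. Ctrl held 2 counts of Oas2 in all, so that value leans on a group at its floor.

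A ligand's effect on the pair differed from its effect alone in 188 genes for PAM, 491 for SeV and 572 for cGAMP. For PAM the log2 difference was -0.84 for Il1b, -2.82 for Cxcl9 and -0.98 for Nfkbia. For SeV it was -1.23 for Tnf, -3.94 for Ifnb1, -4.33 for Cxcl10, -4.37 for Ifit1, -1.27 for Ccl5, -1.87 for Ccl4, -5.42 for Cxcl9, -1.95 for Cd40 and -0.56 for Nfkbia. For cGAMP it was -1.45 for Tnf, -3.66 for Ifnb1, -4.77 for Cxcl10, -4.50 for Ifit1, -1.59 for Ccl5, -2.53 for Ccl4, -5.25 for Cxcl9, -2.10 for Cd40 and -1.14 for Nfkbia.

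Among these, Cxcl9 for PAM was lost in 7 of 22 alternatives, among them the fits without triplet replicate 1 (adjusted p = 0.0561), triplet replicate 3 (0.0686) or SeV + cGAMP replicate 1 (0.0503), with a range of 0.0131 to 0.331. Il1b for PAM was lost in 8, among them those without triplet replicate 1 (0.0737) or SeV + cGAMP replicate 2 (0.226), with a range of 0.0068 to 0.232. Nfkbia was lost for SeV in 10 alternatives, with a range of 0.0115 to 0.23, and for PAM in 1, with a range of 5.32e-05 to 0.178.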

How the results depend on the processing

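Among genes named by the rule, no log2 value changed sign with its call under any alternative run. Genes named after their values were seen were not checked under the alternatives. Examples are Tnfsf10, Ccr7, Cxcl11, Ccl12, Ccl6 and Slco3a1, and Ccl2 and Ccl7 with PAM added. The balance of calls with PAM added turned from 327 higher and 268 lower to 252 and 432 when libraries were scaled by total counts alone. Of the alternative counts for the comparisons, 176 stayed within 1.5 times the main count and 23 did not. Asking for 2-fold gave 377 genes with PAM added and 174 with cGAMP added. Thinning the 24 libraries to equal totals gave 275 and 129, and 97, 326 and 361 for the differences of PAM, SeV and cGAMP between pair and alone. DESeq2 gave 122 for that difference of PAM and 7 three-way genes. Leaving out replicate 1, 2 or 3 of all groups gave 423, 361 and 375 genes with PAM added, 175, 190 and 177 with cGAMP added, 2, 2 and 5 three-way genes, and 84, 112 and 78 genes for the difference of PAM. Leaving out PAM + SeV replicate 1 gave 201 with cGAMP added, and leaving out PAM + cGAMP replicate 2 gave 8 three-way genes. For the added ligands, single libraries were left out of the triplet and the pair compared. For the other counts they were left out of the triplet and all 3 pairs, and never singly of Ctrl or a single ligand. Over these fits and those without a replicate number of all groups, the counts ran from 361 to 529 genes with PAM added and 175 to 254 with cGAMP added. They ran from 0 to 0 with SeV added and above or below all pairs, and from 2 to 14 for three-way genes. The differences of PAM, SeV and cGAMP ran over 78 to 185, 341 to 518 and 380 to 587. In these cases the cause was not tested, beyond the fewer libraries or counts. The thinned depth was chosen after the data were seen for the 12 libraries alone (406 and 267 genes with PAM and cGAMP added).

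With the replicate number as a block, 619 genes were called with PAM added (592 of them shared), 324 with cGAMP added (312 shared), 0 with SeV added, 16 for the three-way interaction, 188, 504 and 584 for the differences of PAM, SeV and cGAMP, and 0 above or below all pairs. The labels give no shared source for a number. Same-numbered samples of the triplet and a pair correlated at -0.0476 to 0.129, short of pairing by the limit used. For SeV + cGAMP all 3 (0.0342, 0.0837 and 0.129) matched their own number best, a hint from the data only, and for the other pairs they did not. Every gene with at least 1 count gave 447 genes with PAM added, 300 higher and 147 lower, and 226 with cGAMP added. That filter split the differences of PAM into 18 positive and 130 negative and those of SeV into 19 and 396. Depth limits genes under 50 CPM, which rest on few counts.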
